A study of Mus musculus with 20 samples.

Results

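The Ink4a-Arf-Ink4b locus is the stretch of mouse chromosome 4 that holds Cdkn2a and Cdkn2b, taken here as the 80 kb at chr4:88900000-88980000 of the mm9 build. Its members are all peaks of 12 chromatin immunoprecipitation sequencing (ChIP-seq) peak lists that overlap this interval by at least 1 bp. There were 73 of them among 1324083 peaks in all. H3K27me3 gave 40, CAP-H2 15, TFIIIC 11 and CAP-D3 7, and each of the 12 lists had at least 2.

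The cells were embryonic fibroblasts from C57BL/6 mice (E13.5), primary cells used while cycling at passage 4. The genotypes were wild type (WT) and Rb1L/L (RbL), the latter with a change in pRb: the pocket of this retinoblastoma protein that binds LXCXE peptides is mutated; no other allele or treatment is named in the labels. H3K27me3 and TFIIIC (antibody to the largest subunit) each had 2 libraries per genotype, and the condensin II subunits CAP-D3 and CAP-H2 each had 1. Chromatin for H3K27me3, CAP-D3 and CAP-H2 was crosslinked with EGS, which bridges proteins over a longer distance, and then with formaldehyde; TFIIIC chromatin saw formaldehyde only. No list of the 8 inputs was used. The question, by the series title, is how pRb brings condensin II to promoters.

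Cdkn2a makes a pair of unrelated proteins from separate first exons. p16Ink4a blocks the cyclin D kinases CDK4 and CDK6, which keeps pRb unphosphorylated, and p19Arf blocks Mdm2, which stabilizes p53. Cdkn2b encodes p15Ink4b, a further inhibitor of CDK4 and CDK6. In young fibroblasts the locus is known to be held silent by Polycomb complexes, whose mark is trimethylation of lysine 27 of histone H3 (H3K27me3), and it is switched on as cells age in culture. Condensin II is a ring-shaped complex that folds chromosomes, and TFIIIC is the factor that binds the internal promoters of tRNA genes and also sites without RNA polymerase III.

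The 3 start regions of the locus differ in CpG content, which is shown because CpG-dense starts are the usual places for Polycomb complexes to settle. Each line gives the 250 bases before a transcription start from RefSeq (GRCm38.p6, minus strand, 5′ to 3′), with every CpG in capitals.

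Ink4a start of Cdkn2a: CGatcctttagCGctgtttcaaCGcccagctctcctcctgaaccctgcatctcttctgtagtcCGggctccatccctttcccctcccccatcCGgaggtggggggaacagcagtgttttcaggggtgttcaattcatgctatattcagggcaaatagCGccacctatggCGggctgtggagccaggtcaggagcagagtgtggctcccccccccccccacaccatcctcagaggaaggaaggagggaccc
Arf start of Cdkn2a: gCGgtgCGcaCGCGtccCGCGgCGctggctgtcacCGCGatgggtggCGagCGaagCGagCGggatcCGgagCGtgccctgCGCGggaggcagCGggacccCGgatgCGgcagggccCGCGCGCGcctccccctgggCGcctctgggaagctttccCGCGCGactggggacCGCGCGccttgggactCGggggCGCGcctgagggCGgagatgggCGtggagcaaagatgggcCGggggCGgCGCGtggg
Cdkn2b start: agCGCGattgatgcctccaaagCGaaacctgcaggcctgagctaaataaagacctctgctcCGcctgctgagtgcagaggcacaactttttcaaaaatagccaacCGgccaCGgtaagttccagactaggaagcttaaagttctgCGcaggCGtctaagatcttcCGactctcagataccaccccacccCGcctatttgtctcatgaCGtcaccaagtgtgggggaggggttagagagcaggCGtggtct

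The Arf start held 40 CpGs in its 250 bases, with 78.4% G and C, and 1.31% of 32851 RefSeq promoters of the same length had as many or more. The Cdkn2b start held 12 (33.5% of promoters had as many or more) and the Ink4a start 7 (46.3%), against a median of 6 over all promoters. The E2F sites TTTCGCGC and TTTGGCGC, searched on both strands, were in none of the 3 windows and in 0.256% and 0.417% of all promoters. The core of the TFIIIC B-box, GTTCGANNC, was absent from the 3 windows and was in 0.691% of all promoters. Bases after the starts, where CpGs or these motifs may also lie, were not searched. Since no mm9 annotation was used here, the peaks below are given by position, and which of them lies at which start was not determined. By RefSeq gene order, Ifna1, Ifne and Mtap precede Cdkn2a, and Dmrta1, Zfp352 and Elavl2 follow Cdkn2b.

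A plot of all 73 peaks shows where the antibodies fell. The first 40 kb carried nearly all H3K27me3 peaks and the second 40 kb most of the CAP-H2 length. CAP-D3 was called at a few short sites, TFIIIC at 2 sites shared between libraries and 5 found in 1 library each, and the last 20 kb held no peak in any list. When peaks of all antibodies were merged, the locus comprised 14 regions, of which 2 had all 4 antibodies and 2 had 3.

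**Figure D1:**
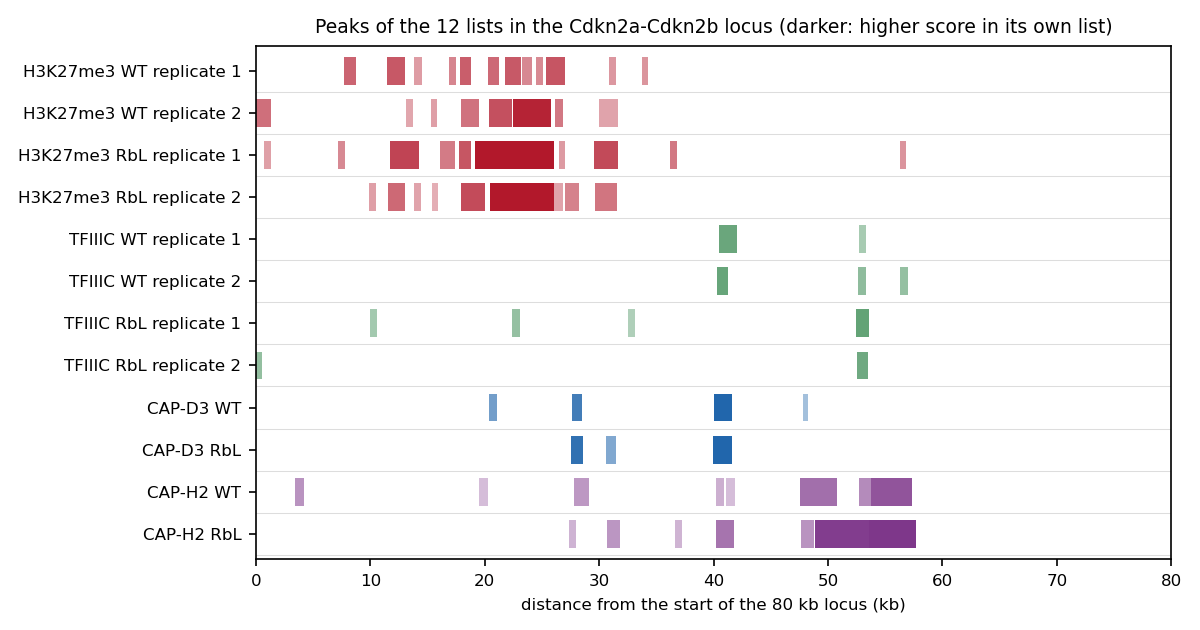
Peaks of the 12 lists along the 80 kb locus, as distance from its start in kb; each bar is 1 peak drawn to scale, in the colour of its antibody, and darker bars have higher scores in their own list. H3K27me3 peaks lie almost all in the first 40 kb, CAP-H2 is widest between about 48 and 58 kb, and nothing was called from 60 to 80 kb.

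H3K27me3 peaks lay in the first 40 kb of the locus in all 4 libraries, with 1 exception, and covered 29.0% and 29.5% of those 40 kb in WT against 40.8% and 37.3% in RbL. Peaks covered 11592 and 11793 bp of the locus in the WT libraries and 16859 and 14927 bp in the RbL libraries. Of its length, 14.5% and 14.7% was covered in the WT libraries, with 21.1% and 18.7% in the RbL libraries. Over the placed chromosomes the same lists covered 0.906% to 2.24%, so the locus lay in the most densely marked few percent of the genome. Of 33026 windows of 80 kb, 1.24% and 2.56% were covered as much or more in WT, and 1.52% and 2.86% in RbL. A window with a peak in every H3K27me3 list, as here, was found for 18.1% of the genome's windows. In bulk chromatin, fewer cells with the mark and less mark per cell cannot be told apart.

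The mark was concentrated between 10 and 30 kb from the start of the locus. From 20 to 30 kb, coverage was 55.2% and 61.2% for WT against 71.2% and 79.9% for RbL. From 10 to 20 kb it was 38.9% and 27.7% for WT against 58.1% and 52.6% for RbL. Both RbL libraries were thus above both WT libraries in either bin before scaling. In all, the lists covered 23.94 and 44.75 Mb in WT and 45.15 and 59.31 Mb in RbL. With scaling to these totals, the genotypes overlapped over the whole locus, as given below. The share of other 10 kb bins with this order was not computed, so no genotype difference is drawn from it. From 40 kb on, 3 of the 4 libraries had no H3K27me3 peak, and RbL replicate 1 had a single peak of 533 bp at chr4:88956252-88956784. The 40 peaks merged into 11 regions, 3 of which had a peak in every library and 4 in a single one. The 3 shared regions lay at chr4:88911431-88914553 (3123 bp), chr4:88917764-88928212 (10449 bp) and chr4:88929540-88931662 (2123 bp).

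The central shared region held the highest-scoring H3K27me3 peak of the locus in every library, and that peak was wider in RbL. It was 1691 bp wide in WT replicate 1 (chr4:88925334-88927024, score 723, rank 3518 of 24741). In WT replicate 2 it was 3360 bp (chr4:88922431-88925790, score 2412, rank 1286 of 45979). Both RbL libraries had a wider one, of 6952 bp (chr4:88919127-88926078) in replicate 1 and of 5604 bp (chr4:88920437-88926040) in replicate 2. Both had a score of 3100, which many peaks share: the tied ranks span 61 to 1508 of 43951 and 56 to 1096 of 56396. By width, these peaks ranked 390 and 826 in their lists (top 0.887% and 1.46%). The score is the authors' own value for a peak, and it ranks peaks only within a list. A widest peak that was wider in both RbL than in both WT libraries occurred in 40.7% of the 7497 H3K27me3 regions found in all 4 libraries, so this order is a common one.

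The next peaks by score lay around the broad one. In WT replicate 1 they were chr4:88911431-88912997 (score 673, top 15.3% of its list), chr4:88921809-88923146 (660, 15.6%) and chr4:88917833-88918813 (594, 17.6%). In WT replicate 2 they were chr4:88920371-88922406 (813, 7.97%), chr4:88899934-88901300 (394, 18.2%) and chr4:88917931-88919515 (359, 20.3%). In RbL replicate 1 they were chr4:88911679-88914296 (1080, 9.16%), chr4:88929540-88931662 (953, 10.5%) and chr4:88917764-88918837 (711, 14.4%). The RbL replicate 2 list gave chr4:88917885-88920052 (935, 6.38%), chr4:88911549-88913007 (456, 13.3%) and chr4:88929605-88931590 (333, 18.9%). All of these except the WT replicate 2 peak at the left edge of the locus belonged to the 3 shared regions. The weakest H3K27me3 peaks of the locus were near the bottom of their lists, the lowest at 97.0% from the top by score.

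The plot of ranks sets every peak of the locus against its own list.

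**Figure D2:**
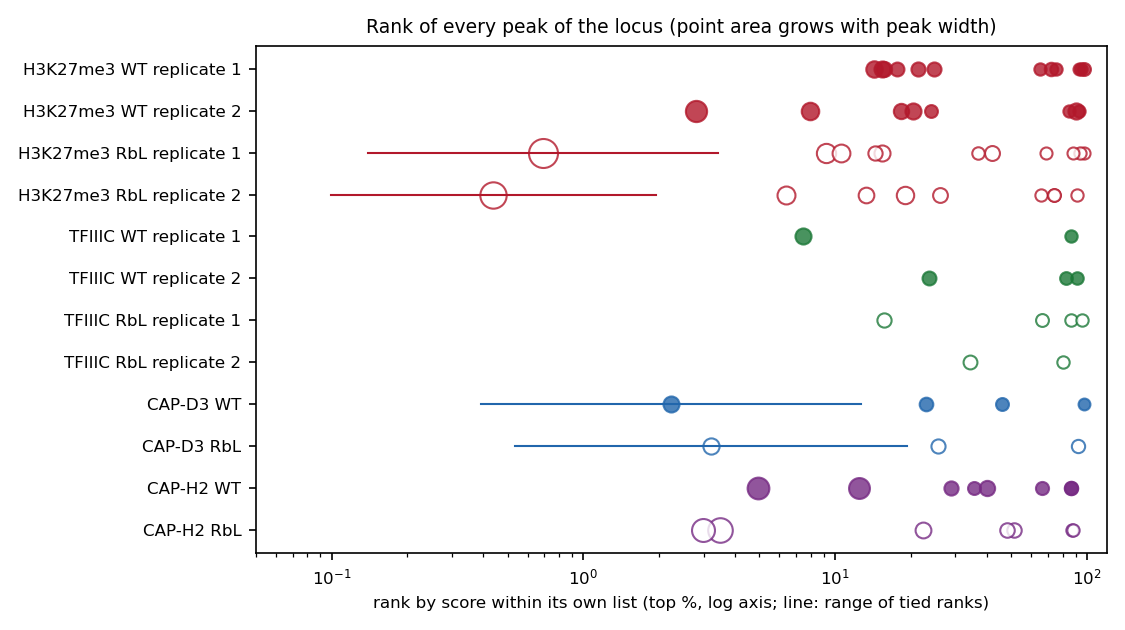
Rank by score of each of the 73 peaks within its own list, as a top percentage on a log axis, with filled points for WT, open points for RbL and point area growing with peak width; where scores are tied, a line spans the tied ranks and the point sits at their geometric middle. The broad H3K27me3 peaks of both RbL libraries stand farthest to the left, the CAP-D3 peaks scored 3100 have wide ranges of tied ranks, and every list has peaks past 70%.

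H3K27me3 at the locus was higher in both RbL libraries before scaling to the library totals and overlapped between the genotypes after it, and neither difference passed its test. Unscaled coverage averaged 14.6% ± 0.177 for WT and 19.9% ± 1.7 for RbL (SD, n = 2), which is a log2 ratio of 0.44 with an exact two-sided permutation p of 0.333, the smallest that 2 against 2 libraries allow. Both RbL libraries were above both WT libraries, as they were in 47.3% of the 7087 windows with a mean of at least 1000 bp. With each list scaled to the mean total of the 4, the locus had 20961 and 11407 bp in WT and 16164 and 10895 bp in RbL, and the groups overlapped. The scaled log2 difference, RbL minus WT on the log2(bp + 1000) scale, was −0.21 ± 0.33 (SE; limma adjusted p = 0.97). Without scaling it was 0.41 (limma adjusted p = 0.584), where the median of all windows was also raised, to 0.57 from 0.07. Of 6913 windows tested, 1 was called (0.0145%), and it was not the locus; 235 had an unadjusted p under 0.05. The labels do not say whether same-label libraries came from separate cultures, so these p-values measure the spread between libraries, which may be technical.

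CAP-D3, a subunit found in condensin II and not in condensin I, had its strongest site in the locus just past its middle in both genotypes. That peak was 1564 bp in WT (chr4:88940010-88941573) and 1616 bp in RbL (chr4:88939967-88941582). Both had the score of 3100, at tied ranks of 69 to 2214 of 17576 in WT and 71 to 2544 of 13233 in RbL. A second site was also called in both, at chr4:88927589-88928502 in WT (914 bp, score 1322, top 22.9%) and chr4:88927553-88928592 in RbL (1040 bp, score 2121, top 25.5%). The remaining peaks were in 1 genotype each. WT had chr4:88920367-88921103 (737 bp, score 408, top 46.1%) and chr4:88947784-88948279 (496 bp, score 122, top 97.0%), and RbL had chr4:88930604-88931428 (825 bp, score 282, top 92.4%). Genome-wide, 9144 merged CAP-D3 regions had a peak in both lists, which hold 17576 peaks in WT and 13233 in RbL. The share of regions called in 1 genotype was not computed, so no genotype difference is drawn from these peaks.

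CAP-D3 peaks covered 3711 bp of the locus in WT and 3481 bp in RbL, 4.64% and 4.35% of its length against 0.514% and 0.460% of the placed chromosomes. Only 0.911% and 1.13% of windows were covered as much or more. Both lists had a peak in 22.2% of windows. With 1 library per genotype there is no test. The scaled log2 ratio of RbL over WT was 0.07, and −0.09 without scaling.

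CAP-H2, the kleisin subunit of condensin II, was called over a broad block in the second 40 kb of the locus in both genotypes. The merged block spanned 10127 bp at chr4:88947554-88957680. In WT it comprised 3 peaks, led by chr4:88953797-88957370 (3574 bp, score 1045, rank 2112 of 42737) and followed by chr4:88947554-88950790 (3237 bp, score 522, top 12.4%) and chr4:88952736-88953789 (1054 bp, score 256, top 28.8%). In RbL it comprised chr4:88953625-88957680 (4056 bp, score 2225, rank 1283 of 43151), chr4:88948844-88953607 (4764 bp, score 1949, rank 1497) and chr4:88947652-88948793 (1142 bp, score 204, top 48.2%). The gap of the WT list between 88950790 and 88952736 was therefore covered in RbL. The 4764 bp peak ranked 321 by width in its list (top 0.744%) and the 3574 bp peak 612 in its own (top 1.43%).

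Outside the block, CAP-H2 was called at both shared CAP-D3 sites. At the strongest CAP-D3 site the WT list had a pair of low-ranked peaks, chr4:88940170-88940952 and chr4:88941090-88941873 (scores 97.1 and 67.8, top 66.4% and 86.1%). The RbL list had a single one there, chr4:88940249-88941749 (1501 bp, score 456, top 22.4%). At the second site CAP-H2 had chr4:88927794-88929145 in WT (score 181, top 40.2%) and chr4:88927348-88927953 in RbL (score 87.5, top 86.8%). The fourth-ranked WT peak, chr4:88903417-88904165 (749 bp, score 206, top 35.6%), overlapped no other peak. The other peaks of CAP-H2 were 1 in WT and 2 in RbL, at or past the middle of their lists.

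CAP-H2 covered 12394 bp of the locus in WT and 13786 bp in RbL (15.5% and 17.2%, against 1.72% and 1.69% of the placed chromosomes). The second 40 kb held 76.1% of that length in WT and 83.2% in RbL, the reverse of H3K27me3. Only 1.08% and 0.808% of windows were covered as much or more in these lists, while both lists had a peak in 43.6% of windows. The scaled log2 ratio of RbL over WT was 0.18, and −0.21 by peak numbers, with no replicate to test it.

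TFIIIC had few peaks in the locus, and 1 site was called in all 4 libraries. It lay inside the broad CAP-H2 block. In WT it was chr4:88952672-88953277 in replicate 1 (606 bp, score 105, top 86.5%) and chr4:88952608-88953305 in replicate 2 (698 bp, score 187, top 82.4%). In RbL it was chr4:88952477-88953542 in replicate 1 (1066 bp, score 540, top 15.6%) and chr4:88952489-88953454 in replicate 2 (966 bp, score 408, top 34.2%). It was thus wider in both RbL libraries, as were 46.4% of the 77521 TFIIIC regions called in all 4. A peak in every TFIIIC list was found in 86.6% of windows.

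A second TFIIIC site was called in both WT libraries and in neither RbL library, at the strongest CAP-D3 site. It was chr4:88940498-88942077 in WT replicate 1 (1580 bp, score 464, rank 14932 of 200350) and chr4:88940267-88941248 in WT replicate 2 (982 bp, score 491, rank 56633 of 239960). These were the highest-scoring TFIIIC peaks of the locus in WT. The RbL lists are longer (294135 and 301874 peaks) and hold nothing that overlaps the site. Of all 435645 merged TFIIIC regions, 1.62% had a peak in both WT libraries and in no RbL library. Among the 5935 TFIIIC regions at CAP-D3 sites of both genotypes, 11.0% did, and the site in the locus is 1 of those 650 regions. Both totals include regions without a peak in both WT libraries, which could not qualify and whose share may differ between them. A share among regions with both WT peaks was not computed, so no contrast is drawn from these 2 percentages. CAP-D3 and CAP-H2 peaks were called at this site in both genotypes.

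The other TFIIIC peaks were in 1 library each and low in their lists. WT replicate 2 had chr4:88956315-88956959 (645 bp, score 160, top 90.8%). RbL replicate 1 had chr4:88909974-88910593 (620 bp, score 115, top 86.0%), chr4:88922399-88923119 (721 bp, score 162, top 66.1%) and chr4:88932538-88933141 (604 bp, score 86.2, top 95.7%). RbL replicate 2 had chr4:88899895-88900502 (608 bp, score 172, top 80.2%), which crosses the left edge of the locus. Within the first 40 kb TFIIIC therefore covered 0 bp in both WT libraries, 1945 bp in RbL replicate 1 and 502 bp in RbL replicate 2. These lengths are unscaled, and the RbL lists hold 294135 and 301874 peaks against 200350 and 239960 in WT. The same order of genotypes was found in 67.2% of 29313 windows of the genome. Its share among stretches of 40 kb was not computed, so no gain of TFIIIC in RbL is drawn from it.

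The total TFIIIC length of the locus gave no call between the genotypes. Unscaled, it was 2186 and 2325 bp in WT and 3011 and 1468 bp in RbL, or 2.82% ± 0.123 against 2.80% ± 1.36 (SD, n = 2; exact two-sided permutation p = 1). The RbL libraries lay on either side of the WT ones, whereas both were above both WT libraries in 67.2% of 29313 windows. Unlike for the other antibodies, most of the genome was covered as much or more: 60.3% and 65.7% of windows in WT and 67.8% and 85.1% in RbL. Scaled to the mean library total, the locus had 3242 and 2671 bp in WT and 2484 and 1181 bp in RbL. Both RbL libraries were then below both WT libraries. The share of other windows with this scaled order was not computed, so no loss of TFIIIC in RbL is drawn from it. The scaled log2 difference was −0.52 ± 0.35 (SE; limma adjusted p = 0.732), and −0.05 without scaling (limma adjusted p = 0.921). No TFIIIC window was called by limma (0% of 29319), and 2125 had an unadjusted p under 0.05.

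Peaks of at least 2 antibodies fell in 7 merged regions of the locus, and of at least 3 antibodies in 4, which are described here. Merging joins peaks through chains of overlaps, so the antibodies of 1 region need not overlap each other. The region chr4:88917764-88929145 (11382 bp) joined peaks of 9 lists and all 4 antibodies, with 4 of its 6 condensin II peaks at its right end, at the edge of the H3K27me3 block, and the other 2, both from WT, inside it. Its only TFIIIC peak, from RbL replicate 1, overlapped H3K27me3 alone. That peak lay 4433 bp from the nearest CAP-D3 peak and 4228 bp from the nearest CAP-H2 peak of RbL. The region chr4:88929540-88931784 (2245 bp) had H3K27me3 in all 4 libraries and CAP-D3 and CAP-H2 in RbL. With 1 condensin II library per genotype, this difference from WT was not tested. The region chr4:88939967-88942077 (2111 bp) had CAP-D3 and CAP-H2 in both genotypes, TFIIIC in both WT libraries and no H3K27me3. The fourth was the CAP-H2 block at chr4:88947554-88957680, with 8 lists and all 4 antibodies, CAP-D3 in WT and H3K27me3 in RbL replicate 1 among them. These last 2 were single peaks low in their lists (top 97.0% and 87.9% by score) and did not overlap each other. TFIIIC chromatin was fixed differently from the rest, so these overlaps join different preparations.

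The 500 kb on each side differed from each other. The left flank, toward Mtap and the interferon genes, held 483 peaks over the 12 lists and the right flank, toward Dmrta1, 170; 3 peaks cross the left edge of the locus and count on both sides. The profile over the locus and both flanks shows a second, larger H3K27me3 domain about 400 kb to the left and a smaller one to the right.

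**Figure D3:**
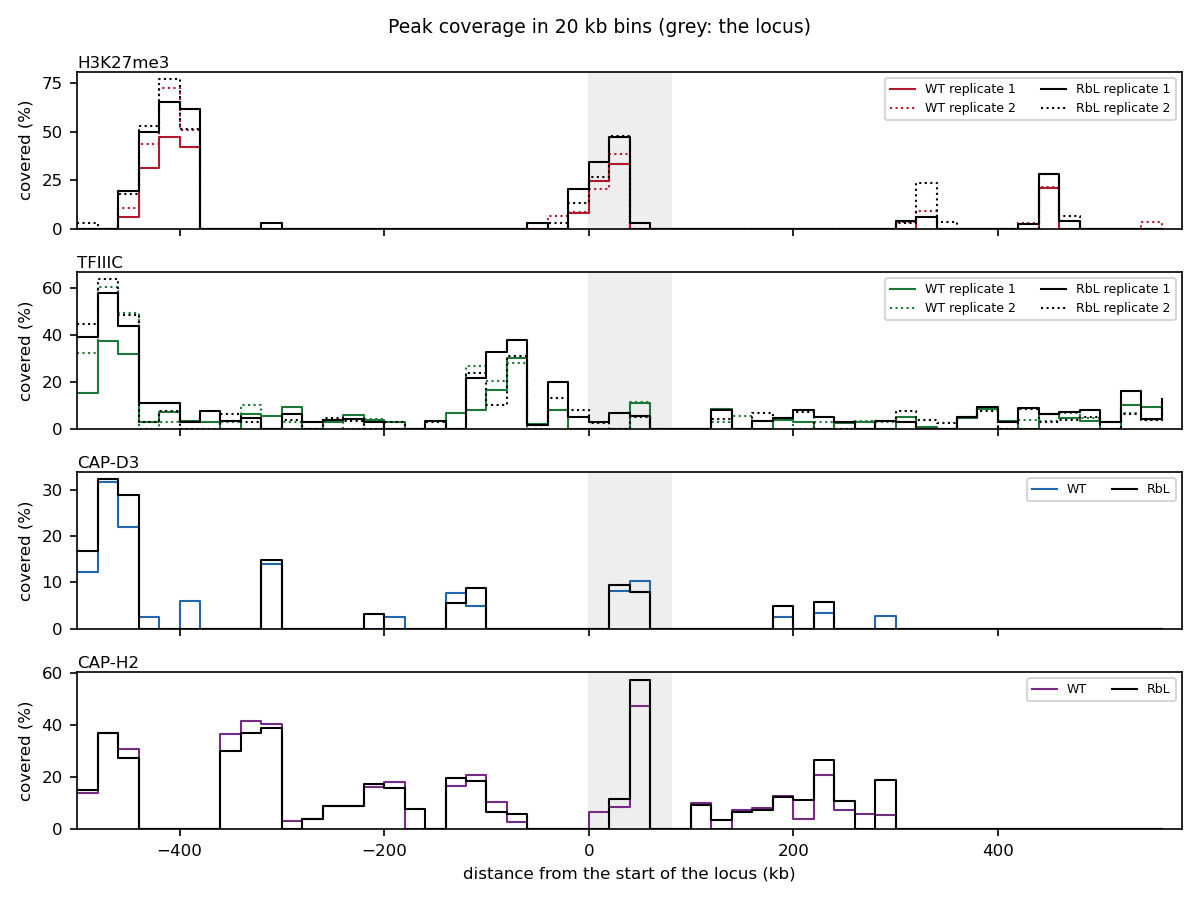
Share of each 20 kb bin covered by peaks, in percent, from 500 kb before to 500 kb after the locus (grey), with 1 line per library, coloured for WT and black for RbL, and solid and dotted for replicates 1 and 2. H3K27me3 is at or near 0% between its left domain and the last bins before the locus, and CAP-H2 has its highest bins inside the locus.

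H3K27me3 was several times denser in the locus than in its flanks. Per library, the covered share of the locus was 4.49 and 3.17 times that of both flanks together in WT, and 3.96 and 3.27 times in RbL. As log2 ratios, WT averaged 1.92 ± 0.35 and RbL 1.85 ± 0.20 (SD, n = 2), a difference of −0.07 with an exact two-sided permutation p of 1. Against the left flank alone the ratio was 1.92 to 2.70, and against the right flank alone 7.22 to 13.4. With flanks of 250 kb it was 14.9 to 32.9, since the left domain then drops out. The strongest left peak was shared by all 4 libraries, at chr4:88508006-88510792 and chr4:88508111-88511388 in WT (2787 and 3278 bp, scores 1912 and 1947) and chr4:88506935-88511780 and chr4:88506238-88511530 in RbL (4846 and 5293 bp, scores 3100 and 2259). So was the strongest right one, at chr4:89354046-89356928 and chr4:89354351-89357537 in WT (2883 and 3187 bp, scores 3100 and 2265) and chr4:89352846-89356829 and chr4:89352621-89357468 in RbL (3984 and 4848 bp, scores 3100 and 2951). These flanking peaks were also wider in both RbL than in both WT libraries, in the same order as the broad peak of the locus.

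The condensin II subunits were denser in the locus than on the right. Against the left flank CAP-D3 was about as dense and CAP-H2 somewhat denser in the locus. CAP-D3 was 2.07 times as dense as in both flanks in WT and 1.80 times in RbL. Against the left flank the ratios were 1.12 and 0.989, and against the right 13.2 and 10.3. For CAP-H2 they were 1.98 in WT and 2.14 in RbL against both flanks, 1.25 and 1.45 against the left, and 4.75 and 4.06 against the right. No CAP-D3 peak of either flank reached the score of the strongest in the locus: the highest were chr4:88583667-88584884 in WT (score 1273) and chr4:88448477-88449584 in RbL (score 1746) on the left, and chr4:89181560-89182110 in WT (score 267) and chr4:89094633-89095602 in RbL (score 936) on the right. For CAP-H2 the highest on the left were chr4:88580765-88585159 in WT (4395 bp, score 1220) and chr4:88551467-88554177 in RbL (2711 bp, score 1569), and on the right chr4:89094180-89095750 in WT (score 671) and chr4:89105985-89108222 in RbL (score 618).

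TFIIIC showed the opposite, with a smaller covered share in the locus than in its flanks. The ratio of this share to that of both flanks was 0.460 and 0.425 in WT and 0.422 and 0.244 in RbL. Against the left flank alone it was 0.326 and 0.281 for WT and 0.291 and 0.162 for RbL. Against the right flank alone it was 0.782 and 0.872 for WT and 0.772 and 0.488 for RbL, so the locus was closer to the right flank. For both flanks, as log2 ratios, WT averaged −1.18 ± 0.08 and RbL −1.64 ± 0.56 (SD, n = 2), a difference of −0.46 with an exact two-sided permutation p of 0.333. RbL replicate 2 was farthest from the others, and without it the difference was −0.07. The highest left peaks were chr4:88422633-88423838 and chr4:88419556-88421447 in WT (scores 500 and 2185) and chr4:88831822-88833878 and chr4:88831774-88833860 in RbL (scores 1554 and 2010). On the right, the highest peak of WT replicate 1 was chr4:89469213-89470971 (score 1055). That of WT replicate 2 and both RbL libraries was at another site, chr4:89284009-89285737, chr4:89284026-89285912 and chr4:89284263-89285754 (scores 2796, 2475 and 2774). The 20 kb bin with this site was also covered in WT replicate 1 (8.65%, against 8.645% in WT replicate 2 and 9.435% and 7.46% in RbL).

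**Figure D4:**
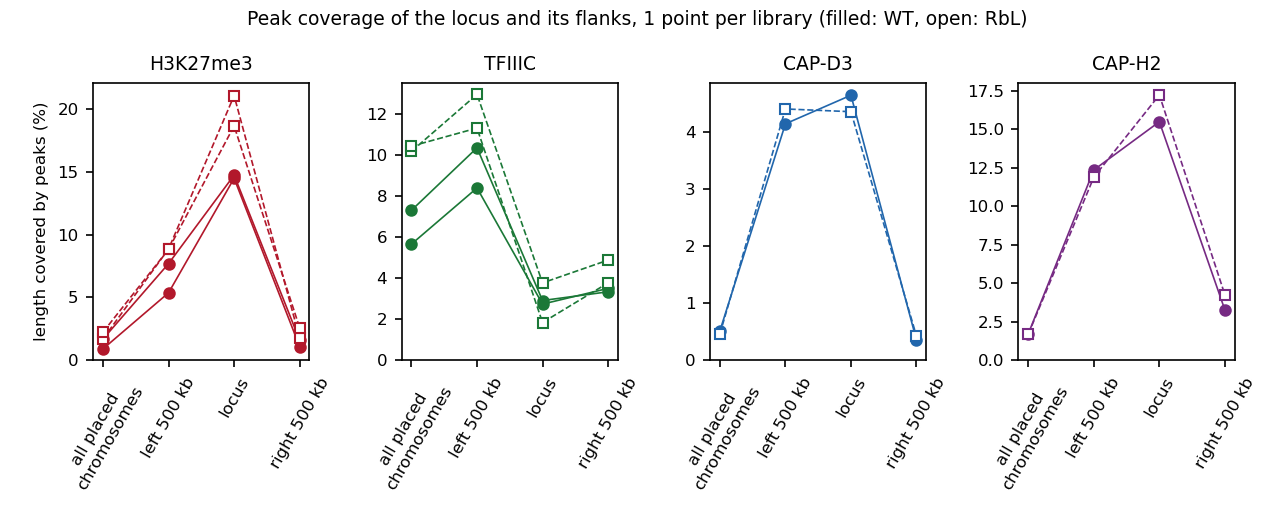
Length covered by peaks, in percent, over all placed chromosomes, the left 500 kb, the locus and the right 500 kb, with 1 panel per antibody and 1 point per library (filled circles WT, open squares RbL; lines join the regions of a library). H3K27me3 rises to between 14.5% and 21.1% in the locus and CAP-H2 to 15.5% and 17.2%, CAP-D3 is as high in the left flank as in the locus, and TFIIIC is lower in the locus than in the left flank and over all chromosomes.

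Few windows combined as much H3K27me3 and condensin II as the locus did. Of the 33025 other windows of 80 kb, 361 (1.09%) had at least its covered length in all 4 H3K27me3 lists, 42 (0.127%) in all 4 condensin II lists, and 2 in all 8. These 2, named after their values were seen, were chr1:172980001-173060000 and chr6:82980001-83060000. The cutoffs are the locus's own values, and the number of windows that would pass by chance was not computed. H3K27me3 and condensin II peaks need not overlap within a window. The combination is a description of these lists, which share inputs between H3K27me3 and condensin II libraries.

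The windows most like the locus over all 12 libraries were found by Euclidean distance in log2(scaled bp + 1000). They were chr2:18580001-18660000 (distance 1.83), chr13:22100001-22180000 (1.93) and chr6:51060001-51140000 (2.11), where the median over all windows was 9.66. The first resembled it in H3K27me3, with 12487 and 12643 bp in WT and 14902 and 14686 bp in RbL before scaling, but had 5645 and 5239 bp of CAP-H2. The second resembled it in CAP-H2, with 12687 bp in WT and 13263 bp in RbL, and had 5962 and 6953 bp of H3K27me3 in WT and 9171 and 7284 bp in RbL. The third had less of both, 9542 to 11682 bp of H3K27me3 and 6428 and 6458 bp of CAP-H2.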

How the data were processed

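ChIP-seq peak lists of 12 libraries were analysed, 1 list per library, so peaks were not called on pooled replicates. Per the submitters' processing notes, Bowtie2 2.3.0 and MACS 1.4.0rc2 were used with mm9; settings and order are not given in the sources used here. The lists deposited by the authors hold a position and a score per peak, in a column without a name; this program writes a scaled negative log10 of a p-value there. A score depends on read depth and input, so it ranked peaks only within a list. Read depth is unknown; more reads tend to give more and wider peaks. By the input titles, 1 input served CAP-D3, CAP-H2 and H3K27me3 replicate 2 of WT, and another CAP-D3, CAP-H2 and H3K27me3 replicate 1 of RbL.

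Covered length was computed in 80 kb windows of the placed chromosomes, laid so that the locus is 1 window. limma 3.58.1 (R 4.3.3; variance trend) compared log2(covered bp + 1000), scaled to the mean library total, keeping windows that averaged 1000 bp or more, with Benjamini-Hochberg adjustment and a threshold of 0.05. Tested on simulated data with 200 changed windows, it recovered 18% of 2-fold and 100% of 4-fold changes for H3K27me3, and 56.5% and 100% for TFIIIC. The simulated noise was normal with the same spread in every window (log2 SD of 0.368 for H3K27me3 and 0.248 for TFIIIC). Windows of the real lists differ in spread, so recovery there may be lower and was not tested. Single values were compared by exact permutation. The locus, lists and named peaks were chosen with earlier results of these data known. Named are all peaks of lists with few in the locus, the 4 highest-scoring of longer lists, regions shared by every library of an antibody or by at least 3 antibodies, the strongest peak of each flank per list, and the 3 most similar windows. Coordinates are 1-based. Promoter sequences came from RefSeq (GRCm38.p6); both genes and 3 starts matched.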

Additional observations from a re-analysis of the deposited data

How the results depend on the processing

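Of 74 alternatives over all results, 51 left direction and call as they were, 12 turned the direction of a difference that was not called (6 for H3K27me3 and TFIIIC, 6 for the untested condensin II ratios) and 11 moved a count of called windows by over 1.5 times; the causes were not tested. The H3K27me3 locus difference (log2 −0.21) turned to 0.41 without scaling, and leaving out 1 library gave −0.62 (without WT replicate 2) to 0.20 (without WT replicate 1). For H3K27me3 over the flanks, leaving out 1 library gave −0.32 to 0.18. For TFIIIC over the flanks, peak numbers gave 0.031. The 1 H3K27me3 window called became 2 with a pseudocount of 200 bp, 5 without a window filter, 0 by peak numbers and 0 to 324 with 1 library left out. The 0 TFIIIC windows called became 36 without a window filter and 0 to 2357 with 1 library left out; both maxima came without WT replicate 2, where the lone WT library is assumed to vary like the others. limma warned that the H3K27me3 fit without a filter is unreliable, as most windows there have no spread. In none of these fits was the locus called. The CAP-D3 ratio of RbL over WT (0.07) turned to −0.09 without scaling and −0.006 by peak numbers, and that of CAP-H2 (0.18) to −0.21 by peak numbers. CAP-H2 over the flanks (0.11) turned to −0.23 against the right flank, −0.09 with flanks of 250 kb and −0.32 by peak numbers, and CAP-D3 over the flanks kept its sign, from −0.36 to −0.18.

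The difference between replicates 1 and 2 in WT and that in RbL had a correlation of 0.21 for either antibody. It was taken across windows (6913 for H3K27me3 and 29319 for TFIIIC), with only 2 same-numbered pairs of libraries per antibody. The labels do not say that a number marks a shared culture or day, and whether the numbers pair the libraries was not determined. With the replicate number as a block, the locus difference was −0.21 for H3K27me3 (limma adjusted p = 0.844) and −0.52 for TFIIIC (adjusted p = 0.674), and 2 and 32 windows were called. Unknown read depth limits every comparison of peak length and width between genotypes.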
